A study of Mus musculus with 8 samples.

Results

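The genes described here are those of the cytosolic ribosomal proteins, 45 of the 18194 genes that had a probeset of their own on the array. Members were chosen by symbol, as Rpl or Rps followed by a number and at most 1 of the letters a, l, x or y, together with Rplp0, Rplp1, Rplp2 and Rpsa, without pseudogenes. Of the 45, 24 belong to the large and 21 to the small subunit of the ribosome. The study asked what loss of the steroid receptor coactivator SRC-2, the product of Ncoa2, does to gene expression in the unstressed heart. RNA of whole hearts was measured on 8 arrays, 4 from WT and 4 from SRC-2 KO mice, all male, of the strain C57B/6Jx129Sv, fed ad lib and 10 to 12 weeks old by the labels, whereas the methods allow somewhat older animals. The KO lacks SRC-2 in every cell of the animal, not in the myocyte alone, and the methods call the animals age-matched littermates. Each array held the RNA of a single mouse by the legend of the paper's heat map, and p-values measure the spread between these 8 arrays.

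Each cytosolic ribosome is built of a large and a small subunit, and cells make the proteins of both in matched amounts. Transcripts of ribosomal protein genes are among the most abundant in a cell, and most start with a run of pyrimidines, the 5′ terminal oligopyrimidine (TOP) motif, through which mTOR signaling and the RNA-binding protein LARP1 set how well they are translated. In the heart, growth under load is known to go with more ribosomes and more protein synthesis. Striated muscle also carries Rpl3l, a muscle form of the large subunit protein Rpl3 that takes its place in the ribosome, and the elongation factor Eef1a2 stands beside Eef1a1 in muscle in a similar way.

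Pyrimidine runs at the start sites are shown because some of the members share them, apart from their protein products. Start sites in RefSeq (GRCm38.p6) were found for 40 of the 45 members, and the longest run of C or T within 10 bases on either side of the start was counted on the strand of the gene. A run of 8 or more was present in 14 of 40 members, or 35%, against 8.71% of the 27025 genes in the same table. Among the genes of mitochondrial ribosomal proteins 5 of 67, or 7.46%, held such a run. The 5 members with the longest runs are printed with Rpl3l for contrast, 15 bases before and 15 from the start on, with the longest run inside the 20 searched bases in capitals.
Rpl35: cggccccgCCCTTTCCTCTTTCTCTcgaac
Rpl7a: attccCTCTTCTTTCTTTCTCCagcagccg
Rpl14: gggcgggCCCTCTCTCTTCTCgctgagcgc
Rpl27a: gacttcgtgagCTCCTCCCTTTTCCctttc
Rps10: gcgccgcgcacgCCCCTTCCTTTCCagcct
Rpl3l: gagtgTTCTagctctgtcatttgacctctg
These windows lie at chr2:39005117-39005146 on the minus strand for Rpl35, chr2:26910792-26910821 on the plus strand for Rpl7a and chr9:120571502-120571531 on the plus strand for Rpl14. Those of Rpl27a, at chr7:109519180-109519209, and of Rpl3l, at chr17:24727811-24727840, are on the plus strand, and that of Rps10, at chr17:27635230-27635259, is on the minus strand. Inside the 20 searched bases the run was 17 bases long in Rpl35 and in Rpl7a, 14 in Rpl14 and in Rpl27a, 13 in Rps10 and 4 in Rpl3l. In Rpl35, Rpl7a and Rpl27a the pyrimidines go on past the searched bases, so their whole runs are longer than these counts. A run is a description of these letters at an annotated start, not evidence that the transcript is regulated through it.

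Values are linear signal intensities as the authors deposited them, and log2 of them was compared. Every array had been scaled to the same 2% trimmed mean, and 36.9% to 40.7% of probesets lay under a signal of 50, where differences carry little. Ncoa2 itself had signals of 1660, 2115, 1827 and 2134 in WT and 237, 260, 267 and 235 in KO, a log2 fold change of -2.95 ± 0.12 (SE, n = 4 and 4; limma, adjusted p = 5.9e-04), so the arrays bear out their labels. Over all genes, the common-variance limma fit called 0.00550% higher and 0.0165% lower in KO after Benjamini-Hochberg adjustment at 0.05, and the fit with a mean-dependent prior variance called 0.121% higher and 0.258% lower. The 12 atrial myocyte markers all had lower means in KO (median log2 fold change -1.57), and 3 of them fell in the mean-dependent fit. The drop was uneven between hearts. Averaged over these markers, log2 signal relative to the WT mean was -0.48, -1.64, -2.97 and -1.73 in the KO hearts. In the WT hearts it was -0.22, 0.37, 0.17 and -0.32. All 10 fibroblast markers (median -0.72) and all 9 macrophage markers (median -0.37) had lower means as well, as did all 8 endothelial markers (median -0.23), none of them called. Of 8 genes taken as markers of ventricular myocytes 7 had higher means (median 0.18), and 5 after quantile normalization (median 0.00). That list includes Actc1, Tnnt2 and Myh6, which are not confined to the ventricle. In RNA from whole hearts, fewer cells of a type and less RNA per cell cannot be told apart. The part of these markers in the values of the ribosomal protein genes was not tested.

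None of the 45 ribosomal protein genes was called different between SRC-2 KO and WT hearts in either limma fit. Over all genes the common-variance fit called 0.00550% higher and 0.0165% lower, and the mean-dependent fit 0.121% and 0.258%. At such shares the lack of a call among 45 genes says little about the members. The lowest adjusted p was 0.472 with a common prior variance and 0.445 with the mean-dependent one, and at an unadjusted p of 0.05 the counts were 1 of 45 and 0 of 45, against 10.1% and 12.6% of all genes. Mean log2 signal was higher in KO for 33 of 45 members, or 73.3%, against 47.0% of all genes, but the median log2 fold change of the members was only 0.04, beside -0.03 over all genes. That direction did not survive another scaling, since quantile normalization left 8 of 45 higher with a median of -0.05, while equal array medians gave 38 of 45 and 0.10. It also depended on a single heart, since without WT replicate 4 the count was 19 of 45 and the median -0.01.

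Signal divides the members into 35 that were read brightly, with mean signals of 8059 and above, and 10 whose own probesets had means of 1049 or below. The bright members moved very little. Their KO over WT fold ran from 0.858 for Rplp0 to 1.15 for Rpl3l, and 32 of 35 lay within 0.9 to 1.1, Rpl35 at 1.11 being the other exception. For 33 of 35 the 95% confidence interval of the log2 fold change lay inside 0.5 on either side of 0, the exceptions being Rpl3l and Rplp0, so a change past that size is outside the interval for the rest. Of the bright members 29 had a higher mean in KO, 13 of 18 in the large subunit with a median of 0.06 and 16 of 17 in the small subunit with a median of 0.04. After quantile normalization 4 of 35 were higher, 4 of 18 in the large and 0 of 17 in the small subunit, with medians of -0.05 and -0.08. The 967 other genes with mean signals of at least 5000 had higher means in 75.1% of cases, with a median of 0.12 and 15.3% of them at an unadjusted p under 0.05, where the bright members had 0. After quantile normalization 585 of those 967 genes were higher.

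**Figure D1:**
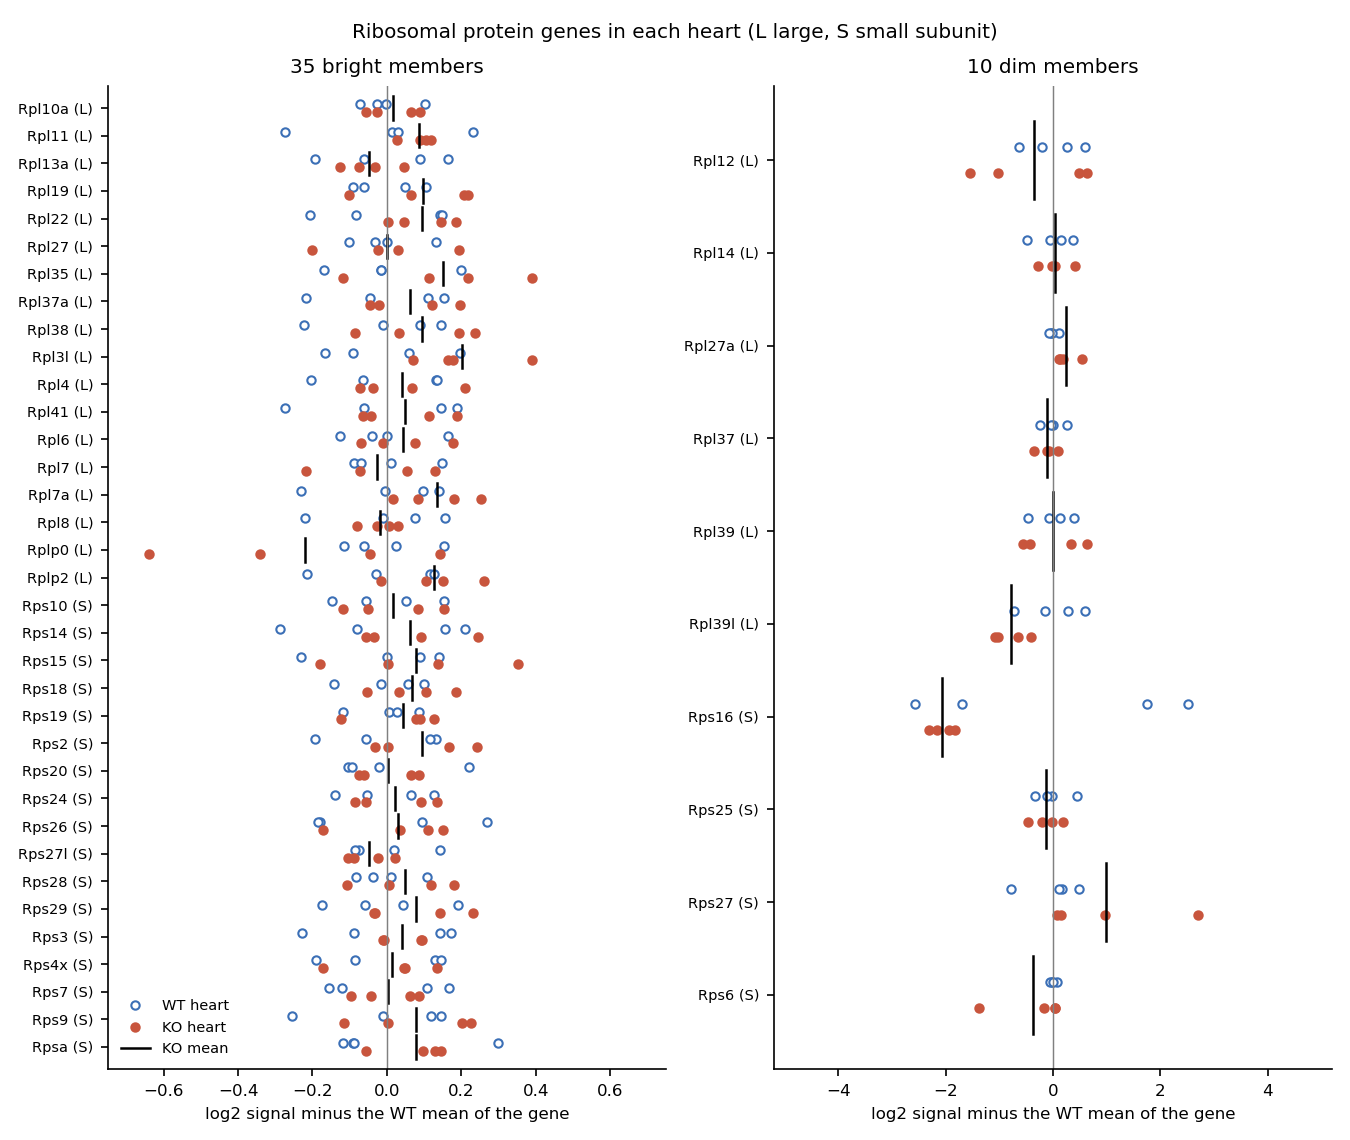
Log2 signal of every ribosomal protein gene in the 8 hearts, relative to its own WT mean, with WT hearts as open blue circles, KO hearts as filled red circles and the KO mean as a black bar. The 35 bright members are on the left and the 10 dim members on the right, on a wider axis. KO means of the bright members sit between -0.22 and 0.20, and those of the dim members between -2.06 and 0.98.

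Among the bright large subunit genes with the smallest p, Rpl7a had signals of 30435, 29523, 27526 and 23512 in WT and 31312, 29237, 32896 and 27951 in KO. WT replicate 4 was below the other 7 hearts, and the log2 fold change was 0.13 ± 0.12 (SE; limma, adjusted p = 0.728). Rpl35, whose start site is shown above, read 22203, 19145, 19131 and 17222 in WT and 22490, 17836, 25350 and 20934 in KO, a difference of 0.15 ± 0.14 (adjusted p = 0.739) with overlapping groups. This value rests on its brightest probeset, since its other 4 bright probesets gave 0.00, 0.02, -0.19 and -0.27 and the mean of all its probesets gave 0.03. Rplp2, an acidic protein of the stalk that recruits elongation factors, gave 43470, 43787, 39283 and 34519 in WT against 48054, 43140, 44501 and 39613 in KO, or 0.13 ± 0.12 (adjusted p = 0.744). Here too the WT array 4 was the lowest of the 8 hearts. Rpl19 was at 0.10 ± 0.12 and Rpl22 at 0.09 ± 0.12, and under quantile normalization Rplp2, Rpl19 and Rpl22 were at -0.03, 0.00 and -0.02. The other probesets of Rpl22, with mean signals of 8874 and 1168, gave 0.31 and 0.08.

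Rplp0, the protein that anchors the stalk and a common reference gene in PCR, was the bright member with the lowest fold. Its signals were 31161, 28470, 25836 and 26839 in WT and 22129, 27133, 30928 and 17977 in KO. KO replicates 1 and 4 were below all WT hearts while KO replicate 3 was among the highest, and the log2 fold change was -0.22 ± 0.18 (limma, adjusted p = 0.707). It was -0.08 without KO replicate 4, -0.34 without KO replicate 3 and -0.36 after quantile normalization. It did not share this spread with its partner Rplp2, whose KO values stayed between 39613 and 48054. Rps27l, a small subunit paralog of Rps27 induced by p53, was at -0.05 ± 0.10 (0.01 with equal array medians), its WT signals running from 9210 to 10795 and its KO signals from 9105 to 9923.

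The 17 bright small subunit genes had log2 fold changes between -0.05 and 0.10. Rps29 gave 61958, 68616, 57722 and 53333 in WT against 70612, 58867, 66426 and 58768 in KO (0.08 ± 0.12), and Rps2, the protein at the mRNA entry channel, gave 49865, 49281, 43724 and 39773 against 53794, 45600, 51034 and 44471 (0.10 ± 0.12). Both had overlapping groups. Rps19, which is mutated in Diamond-Blackfan anemia, ranged from 9060 to 10448 in WT and from 9025 to 10735 in KO, and Rps14 from 33910 to 47904 and from 39774 to 49030. Rpsa, also known as the laminin receptor, was 29780 in WT replicate 1 and 22297 to 22782 in the other WT hearts, and 23277 to 26782 in KO.

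On the deposited scale, hearts of the same genotype differed more than the genotype means did. WT replicate 4 was the lowest of the 4 WT hearts in 27 of the 35 bright members and WT replicate 1 the highest in 20, while in KO replicate 3 was the highest in 19 and replicates 4 and 2 the lowest in 17 and 15. Averaged over the 35 genes, log2 signal was 14.64, 14.58, 14.45 and 14.36 in the WT hearts and 14.62, 14.49, 14.65 and 14.46 in the KO hearts. The genotype means were 14.51 ± 0.12 and 14.55 ± 0.09 (SD, n = 4 each), a difference of 0.05 that lies inside the spread of either group. With equal array medians the difference was 0.11, and after quantile normalization it was -0.07, with SDs of 0.05 and 0.04. As a check of RNA quality, 3′ minus 5′ control signal for Gapdh (log2) was -0.12 to 0.00 in WT and -0.17 to -0.06 in KO (exact permutation test, two-sided p = 0.171). For actin it was 1.34 ± 0.03 in WT and 1.43 ± 0.07 in KO (SD, n = 4 each, exact permutation p = 0.114), and the part of RNA quality in these values was not tested.

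**Figure D2:**
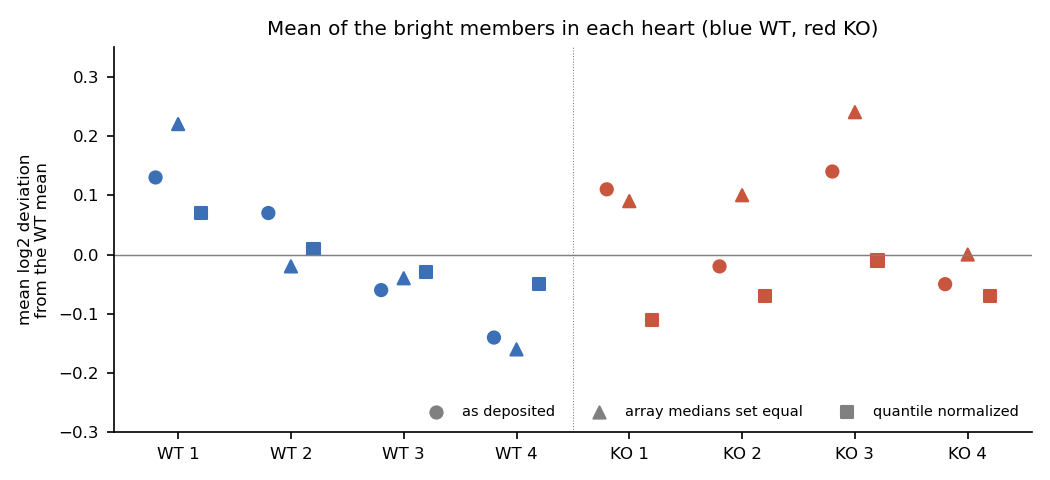
Mean log2 deviation of the 35 bright members from their WT means in each heart, for the deposited signals (circles), after setting array medians equal (triangles) and after quantile normalization (squares), WT in blue and KO in red. Deposited values run from -0.14 in WT replicate 4 to 0.14 in KO replicate 3, and quantile normalization puts all 4 KO hearts at or below -0.01.

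**Figure D3:**
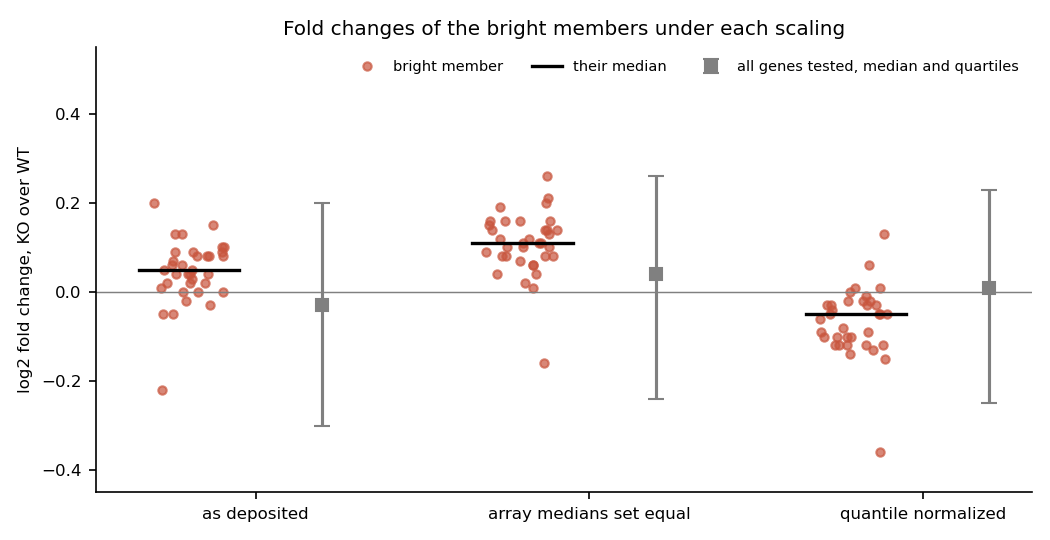
Log2 fold change, KO over WT, of each of the 35 bright members (red points, black bar the median) under 3 scalings of the arrays, beside the median and quartiles of all 18194 genes (grey). The median of the bright members is 0.05 as deposited, 0.11 with equal array medians and -0.05 after quantile normalization, each time within the quartiles of all genes.

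Rpl3l, the muscle form of Rpl3, had the highest fold among the bright members. Its signals were 8562, 6657, 7017 and 7783 in WT (7505 ± 847, SD) and 9791, 7838, 8370 and 8452 in KO (8613 ± 831). KO replicates 2, 3 and 4 lay below WT replicate 1, and the log2 fold change was 0.20 ± 0.13 (SE), with a 95% interval of -0.10 to 0.50 (limma, adjusted p = 0.620, and 0.445 in the mean-dependent fit). No probeset reads Rpl3 alone. The bright probeset listed for Rpl3 and for Gm12816 gave 16813, 16307, 14035 and 12408 in WT (14891 ± 2049) and 12532, 12552, 11121 and 12073 in KO (12069 ± 670), a log2 fold change of -0.29 ± 0.13 with an interval of -0.60 to 0.01 (adjusted p = 0.507, and 0.263 in the mean-dependent fit). WT replicate 4 fell between the KO values, and the other 3 WT hearts were above all 4 KO hearts. A dimmer probeset, listed for these genes and Gm5879, read between 3.34 and 36.8 and says nothing at that level.

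Because both were read on the same array, the difference of Rpl3l and the probeset of Rpl3 and Gm12816 is free of array scaling by a constant. It was -0.97, -1.29, -1.0 and -0.67 in the WT hearts and -0.36, -0.68, -0.41 and -0.51 in the KO hearts on the log2 scale. The means of -0.98 ± 0.25 and -0.49 ± 0.14 (SD, n = 4 each) differed by 0.49, a 1.41-fold shift toward Rpl3l in KO. By an exact permutation test over the 8 hearts the two-sided p was 0.0571, where the smallest that 4 against 4 allows is 0.0286. The groups overlapped only through WT replicate 4 and KO replicate 2. Without WT replicate 4, or after quantile normalization, the p was 0.0286, the smallest either setting allows, with differences of 0.60 and 0.49. Since the overlap ran through WT replicate 4, leaving that heart out parts the groups by construction and adds no support. Across the other arrays left out the p was 0.0571 or 0.0857. The levels of the 2 probesets in the same heart cannot be set against each other, only their difference between genotypes.

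**Figure D4:**
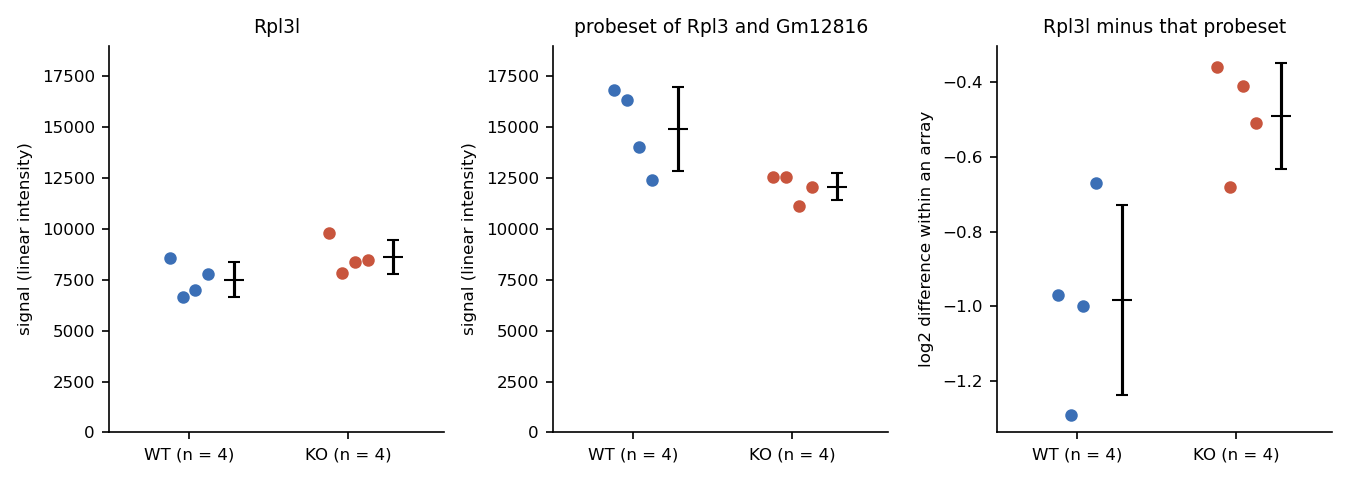
Signal of Rpl3l, signal of the probeset listed for Rpl3 and Gm12816, and the log2 difference of the 2 within each array, by genotype, with each heart as a point and the mean and SD beside it. The first 2 axes start at 0. In the right panel the KO hearts lie between -0.68 and -0.36 and the WT hearts between -1.29 and -0.67, touching at -0.67 and -0.68.

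The elongation factors Eef1a1 and Eef1a2, which deliver aminoacyl-tRNA to the ribosome, form a similar pair of a general and a muscle and nerve form. Eef1a1, which like the ribosomal protein genes has a TOP start, read 34991, 38714, 34673 and 28973 in WT and 31192, 26711, 25758 and 30775 in KO (-0.26 ± 0.13, adjusted p = 0.549). Eef1a2 read 13282 to 16345 in WT and 15263 to 16802 in KO (0.12 ± 0.11, adjusted p = 0.732). Their within-array difference averaged -1.20 in WT and -0.82 in KO, which is given as a description, since the pair was looked at after its values were known.

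The 10 dim members had log2 fold changes between -2.06 and 0.98. Rpl27a was the single member whose 4 KO values all lay above its 4 WT values, against 3.11% of all genes, and no member had all KO values below WT, against 3.72%. Its own probeset read 604, 548, 555 and 534 in WT and 614, 607, 818 and 637 in KO (0.25 ± 0.13, limma adjusted p = 0.564). The probeset that lists Rpl27a with the copies Gm8213, Gm14407, Gm14439 and Gm13981 read 24982 to 29170 in WT and 25724 to 26642 in KO, with a log2 fold change of -0.08. A second probeset of Rpl27a alone, with a mean of 23.9, moved by -1.27.

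Rpl39l, the testis-enriched paralog of Rpl39, was the member with the smallest unadjusted p. Its signals were 171, 69.0, 102 and 138 in WT and 54.0, 85.8, 72.4 and 56.2 in KO, close to the level where most probesets are dim, and the log2 fold change of -0.79 ± 0.31 had an unadjusted limma p of 0.0358 and an adjusted p of 0.472. Rpl39 on its own probeset was at 0.00 ± 0.32, and on the bright probeset it shares with Gm32211 at 0.07 ± 0.14. Rps27 read 46.3, 112, 89.4 and 85.9 in WT and 156, 88.7, 520 and 84.3 in KO, so its log2 fold change of 0.98 ± 0.61 came mostly from KO replicate 3, and the probeset of Rps27 and Rps27rt gave 0.08. Rps16 was at 23.2 and 39.5 in WT replicates 1 and 4 and between 1.16 and 2.12 in the other 6 hearts, which is background, while the bright probeset that lists it gave 0.04. Rps6, the target of S6 kinase, was 326 in KO replicate 2 and 752 to 890 in the other 7 hearts, and the probeset of Rps6 and Rps6-ps4 gave 0.05. Rpl12, Rpl14, Rpl37 and Rps25 were at -0.36, 0.04, -0.11 and -0.12 on their own probesets and at -0.02, 0.05, -0.03 and 0.18 on the bright ones listing their copies.

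Many ribosomal protein genes have processed pseudogenes so like them that the array cannot part them. For 38 such genes a probeset lists the gene with its copies only, and 24 of these have no probeset of their own. On those 24 probesets signals ran from 11121 to 54595, and 16 had a higher mean in KO, the median log2 fold change being 0.02 and the range -0.29 to 0.17. The probeset of Rpl3 and Gm12816 was the lowest, the next being at -0.09, and that of Rpl23a and 7 copies the highest. With the brighter of own and shared probesets, 51 of 69 genes were higher in KO with a median of 0.04, none had KO and WT values apart, and the lowest adjusted p was 0.472. After quantile normalization 6 of the 69 were higher, with a median of -0.08.

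Of the 45 members 23 had several probesets, and for 9 of them the 2 brightest had fold changes of opposite sign. The widest gaps were in Rpl27a and in Rps6, where the second probeset was near background. For Rps7 the probesets gave 0.00 and -0.19, for Rpl13a -0.05 and 0.13, for Rps9 0.08 and -0.08 and for Rpl37a 0.06 and -0.06. Disagreement between probesets of a gene was therefore as large as most fold changes of the bright members.

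Genes that act with the ribosome were counted in lists chosen by function. None of their measured genes passed in either fit. Of 30 initiation factors 18 had a higher mean in KO with a median log2 fold change of 0.04, led by Eif2b2, a subunit of the exchange factor that recharges eIF2, at 0.33 ± 0.12 (limma, adjusted p = 0.457). Its lowest KO signal, 2158, was above its highest WT signal, 1959. That held for 1 of these 30 genes, against 3.11% of all genes. Eif3i, next by p, was at 0.23 ± 0.11 (limma, adjusted p = 0.540). Of 30 ribosome biogenesis genes 19 had higher means (median 0.06), among them Heatr1 at 0.26 ± 0.13. Fbl, the rRNA methyltransferase fibrillarin, was at 0.25 ± 0.10 (limma, adjusted p = 0.467), its KO signals, from 1721 up, all above the WT signals, which reached 1591. Such a separation upward was seen in 1 of these 30 genes, against 3.11% of all genes.

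RNA polymerase I transcribes the rRNA that ribosomal proteins bind. Of 13 measured genes of this machinery 3 had higher means in KO and the median was -0.16, whereas Polr1a, its largest subunit, was at 293, 230, 348 and 317 in WT and 355, 467, 485 and 490 in KO (0.60 ± 0.17, limma adjusted p = 0.398). The KO values of Polr1a were all above WT, which held for 1 of these 13 genes, against 3.11% of all genes. Taf1a, next by p, was at 0.34 ± 0.16 (limma, adjusted p = 0.538). Of 19 genes of mTOR signaling and translation control 11 had higher means (median 0.03). Pdcd4, an inhibitor of the helicase eIF4A that S6 kinase marks for degradation, was at -0.36 ± 0.12 (limma, adjusted p = 0.437). Mycn, next by p, was at -0.42 ± 0.21 (limma, adjusted p = 0.541). Larp1, which holds TOP transcripts back from translation, was at 0.17 ± 0.10, its KO signals starting at 1609 and its WT signals ending at 1579. All KO values lay above WT in 2 of these 19 genes, against 3.11% of all genes. Of the other TOP genes 1 of 8 had a higher mean (median -0.11), with Npm1 at -0.20 ± 0.12 and Gas5 at -0.32 ± 0.24. After quantile normalization 0 of 8 were higher (median -0.16), where the bright ribosomal protein genes were mostly lower too. Fau, whose product carries the small subunit protein eS30, was at -0.02 ± 0.09.

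The genes of mitochondrial ribosomal proteins, named alike but coding for the separate ribosome of the organelle, had higher means in KO in 68 of 76 cases, the median log2 fold change being 0.18, against 0.04 for the cytosolic members. None was called, with a lowest adjusted p of 0.388 in the common-variance and 0.0855 in the mean-dependent fit. Both belong to Mrps6, which was lower in KO (-0.45 ± 0.12). Among the genes with higher means the lowest were those of Mrps10 (0.42 ± 0.12), at 0.402 and 0.122 in the same fits. The direction of the list held after quantile normalization, with 61 of 76 higher and a median of 0.13, where the cytosolic members were at -0.05. At an unadjusted p under 0.05 the common-variance fit had 6 of 76, or 7.89%, against 1 of 45 members and 10.1% of all genes. The mean-dependent fit had 25 of 76, or 32.9%, against 0 of 45, 12.6% of all genes and 29.4% of the other genes with mean signals of at least 5000.

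**Figure D5:**
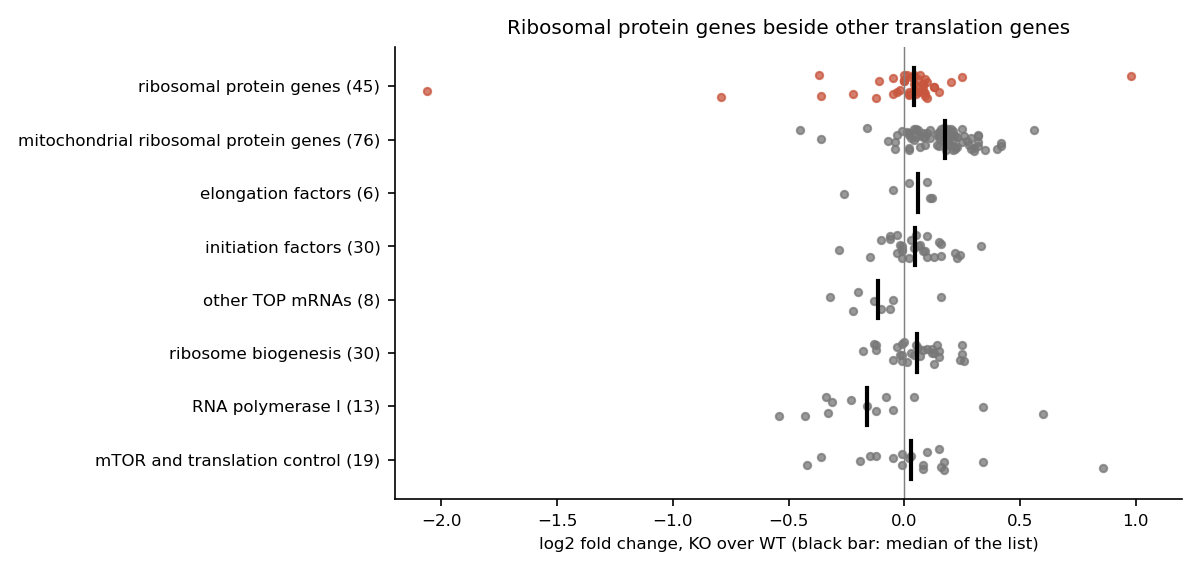
Log2 fold change, KO over WT, of each measured gene in the ribosomal protein genes (red) and in 7 other groups of genes for translation (grey), with the number of genes in brackets and the median as a black bar. The cytosolic ribosomal protein genes gather near 0 apart from the dim members, and the mitochondrial ones center on 0.18.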

How the data were processed

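RNA of 8 hearts was labeled with the 3′ IVT Express kit and hybridized to Affymetrix Mouse 430 2.0 arrays. Values are intensities on a linear scale as deposited by the authors. RMA, Partek and Affymetrix Expression Console stand in the submitters' processing notes. The methods describe RMA, yet the arrays share a 2% trimmed mean and not a distribution. Log2 was taken with no floor. Probesets were named from the platform annotation, with symbols updated through RefSeq. Only probesets of 1 symbol stood for a gene, the brightest over 8 arrays, which gave 18194 genes. No such probeset reads Rpl3, so its planned test was run on the probeset it shares with Gm12816. Of the 81 genes in the gene table that fit the rule, 45 are members and 24 more were read only on shared probesets. The remaining 12 were not analysed here.

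Genotypes were compared by limma 3.58.1 (R 4.3.3), by lmFit and eBayes with a common prior variance or, as the mean-dependent fit, a trended one, two-sided, with Benjamini-Hochberg adjustment over all genes at 0.05. Single values were compared by exact permutation of the arrays in Python 3.11.15. Scripts were tested on simulated data. The number of arrays limits the precision. Members and lists were chosen with earlier results of these data known. Named are Ncoa2, Rpl3, Rpl3l, the 8 members of smallest p each way, paralogs with an l form, members with discordant probesets, Eef1a1, Eef1a2 and the 2 genes of smallest p in each list. Rps2, Rps14, Rps19, Rps29 and Rpsa were added after their values were seen, as were Larp1, Rheb and the shared probesets. Other scalings, filters, variance models and left-out arrays were tried as alternatives.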

Additional observations from a re-analysis of the deposited data

Results flagged for a closer look

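In 100 groups of 4 hearts, made of the 45 members, Ncoa2, Eef1a1, Eef1a2, the probeset of Rpl3 and Gm12816 and its difference from Rpl3l, 3 had a heart far from the other 3 by Dixon's ratio, or 3%, where chance gives about 1 in 20. Rpl27a was 818 in KO replicate 3 and 607 to 637 in the other KO hearts. Rps6 was 326 in KO replicate 2 and 752 to 870 in the others, on a probeset far dimmer than the one it shares with Rps6-ps4. Rpsa was 29780 in WT replicate 1 and 22297 to 22782 in the other WT hearts. Each came from a different array.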

How the results depend on the processing

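No ribosomal protein gene was called in either direction in any alternative, the trended fit and each array left out included. The count with a higher mean in KO was 33 of 45 and went to 8 after quantile normalization, to 51 of 69 with the shared probesets added (chosen after seeing the data), and to between 19 and 35 with an array left out. The median moved between -0.01 and 0.09 with an array left out (large subunit -0.01 to 0.10, small subunit -0.02 to 0.07), and the small subunit median was -0.08 after quantile normalization. The mean over all 45 members, -0.02 between genotypes, was between -0.06 and 0.03 with an array left out, -0.09 after quantile normalization and 0.04 with equal array medians. Members with all KO above WT were 0 with the mean of all probesets and with equal array medians, and 1 to 3 with an array left out (3 without WT replicate 1, which adds Rpl3l and Rpsa). Those with all KO below were 2 after quantile normalization (Rps10 and Rps24), and 0 to 1 with an array left out. Shares over all genes are not given for these settings, and fewer arrays part more easily for any gene. These counts are therefore no result about the members. Signs turned for Rpl27a (-0.51) and Rps6 (0.23) with the mean of all probesets, which takes in a second probeset near background. After quantile normalization they turned for Rplp2 (-0.03), Rpl19 (0.00) and Rpl22 (-0.02). They also turned for Rpl12 without KO replicate 1 (0.04, and -0.69 without KO replicate 2) and for Rps25 without WT replicate 4 (0.03). For Rps27l they turned without _x_at and _s_at probesets (0.01) and with equal medians (0.01). Apart from the mean of all probesets, the cause of these turns was not tested. Rps16 is no such case, since all its signals lay under 50 and setting these to 50 gives 0.00.

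Rpl3l stayed between 0.14 and 0.27 with an array left out, the probeset of Rpl3 and Gm12816 between -0.38 and -0.23 (-0.74 as the mean with its dim probeset), and their difference between 0.39 and 0.60 (0.94 with that mean). That difference was 0.49 with p = 0.0286 by the exact permutation test after quantile normalization. Ncoa2 stayed between -3.02 and -2.90 with an array left out and was not called with the mean of all its probesets (-1.30).

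Over all genes 1 was called higher and 3 lower. With an array left out they were 0 to 1 and 1 to 5. The trended fit gave 22 and 47, with an array left out between 2 and 104 higher (6 without WT replicate 1, 10 without KO replicate 1 or 2) and between 3 and 218 lower (15 without WT replicate 1, 17 without WT replicate 4, 31 and 26 without KO replicates 2 and 3). Counts were 0 and 1 with each gene's own variance and with the mean of all probesets, and 5 lower with array weights. None was called higher with dim genes left out, with signals under 50 set to 50 or after quantile normalization. Same-numbered arrays did not deviate together more than others (r from -0.084 to 0.119, against -0.134 to 0.152 between different numbers). The numbers thus gave no sign of pairing, though 4 arrays per genotype cannot exclude it. With the replicate number as a block, 0 genes were called higher and 0 lower, and Ncoa2 kept -2.95 with an adjusted p of 0.258.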

Other observations

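Some genes near the rule are no members, by their letters or as pseudogenes. Rps3a1, the mouse gene of a small subunit protein, read 25213 to 32946 in WT and 28212 to 32393 in KO, with a log2 fold change of 0.01 ± 0.12. The paralogs Rpl7l1 and Rpl22l1 were at 0.09 ± 0.11 and 0.02 ± 0.22, the latter with 12532 in KO replicate 3 against 6829 to 9866 in the other KO hearts. Rps4l, annotated as a transcribed pseudogene, was at 0.10 ± 0.31, while its relative Rps4x, an X-linked member, was at 0.01 ± 0.13. Among the mTOR genes Rheb, which activates mTOR, had KO signals of 10257 to 11341 above WT signals of 9298 to 10225, a log2 fold change of 0.16 ± 0.09 (limma, adjusted p = 0.603). It is 1 of the 2 genes among those 19 with all KO above WT, against 3.11% of all genes. Of the 6 smooth muscle markers 4 had lower means in KO (list median -0.11), among them Cnn1 at -1.19 and Myh11 at -0.60, neither called. Acta2 rose by 0.74 ± 0.14 in the trended limma fit (adjusted p = 0.0421). Of 8 skeletal muscle markers 6 had lower means (list median -1.01), while Mylpf and Actn3 were at 0.28 and 0.03. Only Tnni2 of these 8, a troponin of fast skeletal muscle, was called in the trended limma fit, where it fell by 2.10 ± 0.38 (adjusted p = 0.0367). In the common-variance limma fit the adjusted p-values of Acta2 and Tnni2 were 0.316 and 0.310.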
